A study of Bactrocera dorsalis with 6 samples.

Results

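The genes doublesex (dsx) and transformer-2 (tra-2) act at the end of the insect sex determination cascade, and each was followed here through a single unigene in the assembly made for Bactrocera dorsalis, the oriental fruit fly. The dsx unigene is comp25690_c0, with 4 isoforms, and the tra-2 unigene is comp23083_c0, with 1 isoform. These 2 unigenes were taken from the authors' sex determination list, which was built by protein similarity to D. melanogaster, and they hold 5 of the 20666 isoforms and 2 of the 10799 unigenes measured. RNA from whole insects of a laboratory colony was sequenced as 1 library for each of 6 groups: eggs, larvae, pupae, adult males, adult females and mated females. The males and females were virgins sexed at emergence and collected daily until mating age, the mated females were taken from mating cages, and RNA extractions of a stage were pooled in equal concentration, so that a library averages over the days of its stage. No agent, transgene or selection was applied, and the labels give neither a strain contrast nor replicate libraries, so differences between stages carry no replicate error and were not tested.

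In insects, dsx encodes a transcription factor whose pre-mRNA is spliced differently in the sexes, and the male and female proteins direct somatic sexual development. The tra-2 product is an RNA-binding splicing factor that acts together with the Transformer protein on dsx pre-mRNA so that the female form is made. In tephritid flies such as Ceratitis capitata, tra-2 is expressed in both sexes and the sex difference lies in transformer itself, which is spliced differently in males and females and keeps its own female splicing active. In D. melanogaster the female Doublesex protein works with the cofactor Intersex, and yolk protein genes are among the genes that Doublesex binds.

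Total expected counts were between 7386960 in eggs and 9905262 in males. The authors estimated these counts with RSEM, which divides reads shared by isoforms among them, so isoform counts need not be whole. All intervals are at the 95% level and cover counting error only, neither the assignment of reads to isoforms nor differences between collections. The interval of a count of 0 runs up to 3.69 counts, and 3 counts were put in place of 0 for ratios. Because whole insects were used, fewer cells of a type and less RNA per cell cannot be told apart.

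The library of virgin females did not match its label on most of the testis and sperm markers examined, and it is called the library labelled female below. Ovary, eggshell and yolk genes were represented by 5 unigenes paired with D. melanogaster genes, and their summed level in mated females was 40700 CPM (counts scaled to the effective library size with the authors' TMM factors), against 446 for the library labelled female and 511 for males. The yolk protein gene Yp1 alone held 33790, 443.6 and 510.3 CPM of these sums, in the same order. The oocyte gene osk had 500 counts in mated females and 0 in both the library labelled female and males, and the vitelline membrane gene Vm26Aa had 32912, 4 and 1 counts, respectively. Testis and sperm genes were represented by 6 unigenes, whose summed level was 46.6 CPM in mated females, 250 CPM in males and 291 CPM for the library labelled female. The RNA-binding gene bol alone held 43.7, 112.6 and 157.1 CPM of these sums, in the same order. It was also counted in eggs and larvae, at 58.4 and 91.7 CPM. Tektin-A, a sperm flagellum gene, had 0 counts in mated females, 767 in males and 634 for the library labelled female. All 5 ovary unigenes were at least 2-fold higher in mated females than in males and than in the library labelled female, while all 6 testis unigenes were at least 2-fold higher in males than in mated females, as were all 5 that had enough counts to compare the library labelled female with mated females. The median difference over the ovary list, males minus mated females, was -12.10 on the log2 scale, and that over the testis list 4.25. Virgin females were collected daily from emergence until mating age, so ovary, eggshell and yolk levels below those of mated females cannot alone tell such a library from males. The mismatch with the label rests on the testis and sperm genes, and its origin was not tested. A 2-fold difference in level was found for 55.1% of the unigenes with at least 10 counts between males and mated females, 56.3% between the library labelled female and mated females, and 4.41% between males and the library labelled female.

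The level of dsx was low in eggs and larvae, intermediate in pupae and highest in the adult libraries. For comp25690_c0, eggs had 8 expected counts (interval 3.45 to 15.8), larvae 16 (9.14 to 25.98), pupae 118 (97.7 to 141), males 389 (351 to 430), the library labelled female 367 (330 to 406) and mated females 475 (433 to 520). Scaled to the effective library sizes, these were 0.835, 2.47, 16.3, 42.3, 45.4 and 47.8 CPM in that order. Every step from eggs to males was upward, and the 3 adult libraries lay close together. The pupal level was 6.60 times that of larvae (interval 3.90 to 11.9), and the male level was 2.60 times that of pupae (2.11 to 3.22). Larvae stood 2.95-fold above eggs (1.19 to 7.97), from 16 and 8 counts. Between the extremes, mated females were 57.3-fold above eggs (28.8 to 133). A 2-fold difference was common at these steps, at 56.1% of unigenes between eggs and larvae, 47.4% between larvae and pupae and 37.3% between pupae and males.

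By scaled unigene counts, the 3 adult libraries did not differ in dsx level beyond counting error. The male to mated female ratio was 0.885 (interval 0.772 to 1.01), the ratio of the library labelled female to mated females was 0.949 (0.826 to 1.09), and the male ratio to the library labelled female was 0.932 (0.806 to 1.08). With the summed FPKM of the isoforms in place of unigene counts, males were at 0.7115 and the library labelled female at 0.745 of mated females, below those intervals.

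By the FlyBase expression categories, the deposited unigene FPKM of dsx was below 1 in eggs (0.29) and larvae (0.86). It was in the low class, from 4 to below 11, in pupae (5.67). In males (14.74), the library labelled female (15.81) and mated females (16.67) it was in the moderate class, which starts at 11. Ranked by FPKM, dsx stood above 17.7% of all unigenes for eggs, 23.7% for larvae and 45.0% for pupae. Among adults it stood above 65.1% for males, 66.9% for the library labelled female and 63.1% for mated females. The 1203 unigenes listed at FPKM 0 in all 6 libraries count as lower in these ranks. The length used for the unigene FPKM, recovered from the ratio of counts to FPKM, was 2868 bp, between those of the 2 isoforms that had egg counts, seq1 and seq6. The same length was used for adults, in which the longer isoforms seq3 and seq5 were also present.

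**Figure D1:**
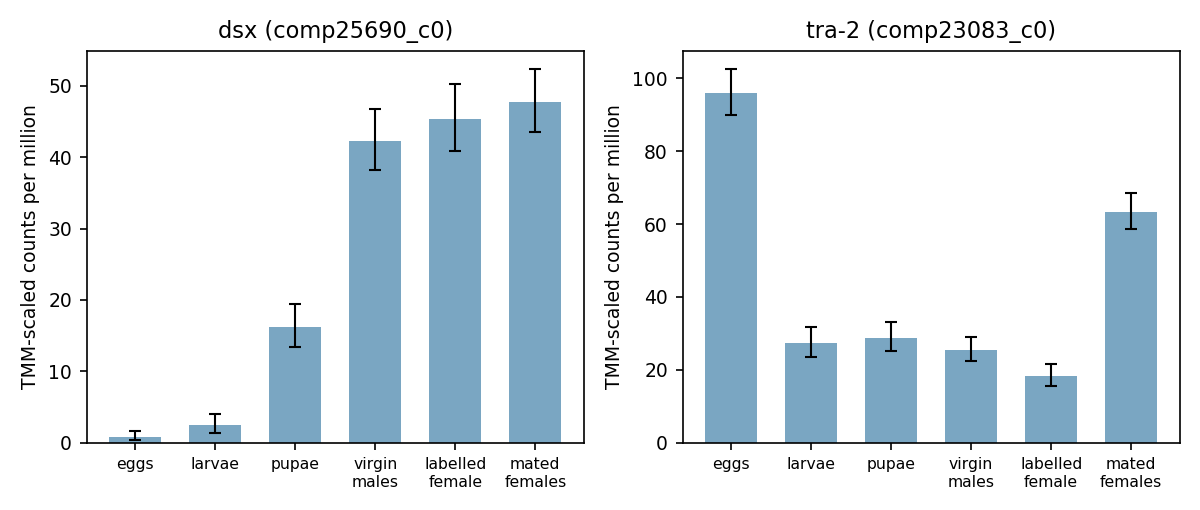
Level of the dsx unigene (left) and the tra-2 unigene (right) in the 6 libraries, as CPM scaled by TMM factors; bars are the value of the single library and error bars its 95% Poisson interval, for counting error only. The dsx bars stand between 0.835 CPM in eggs and 47.8 CPM in mated females, and the tra-2 bars between 18.4 CPM in the library labelled female and 96.0 CPM in eggs.

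While the adult libraries were close in scaled unigene counts of dsx, though not in summed isoform FPKM, they were made up of different isoforms. The isoform comp25690_c0_seq1 made up 61.7% of the summed isoform FPKM in mated females, but 0.233% in males and 1.70% for the library labelled female. The isoforms comp25690_c0_seq5 and comp25690_c0_seq6 together, a pair grouped after their values were seen, made up 1.60% in mated females, 86.6% in males and 86.4% for the library labelled female. Mated females were also collected later than the virgin adults, so sex, mating and age cannot be told apart in these contrasts. The 4 isoforms are called seq1, seq3, seq5 and seq6 below, after the endings of their identifiers. No sequence of these isoforms was used here, so none was assigned to the male or the female splice form. Their lengths, recovered from counts and FPKM, were 2622, 3359, 3804 and 3062 bp.

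The isoform seq1 had 264.92 expected counts in mated females (interval 234 to 299), 57.42 in pupae, 10.84 in larvae, 3.2 in eggs, 0.79 in males and 4.69 for the library labelled female. Its FPKM was 11.19 in mated females, 3.06 in pupae, 0.58 in larvae, 0.12 in eggs, 0.23 in the library labelled female and 0.03 in males. It had the largest share of the summed FPKM in larvae, pupae and mated females, though larvae had only 16 dsx counts. In males it was under the 3 counts put in place of 0, with an interval up to 5.57. Scaled by library, the mated female level was 49.4 times that of the library labelled female (interval 19.6 to 144). Against males the ratio was 338 (47.6 to 10610), which rests on less than 1 male count.

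The isoform seq6 was the most abundant in males, with 210.43 counts there (interval 183 to 240), 125.17 for the library labelled female, 35.79 in pupae, 5.16 in larvae, 4.8 in eggs and 6.91 in mated females. Its FPKM was 7.54 in males, 5.18 in the library labelled female, 1.63 in pupae, 0.24 in larvae, 0.16 in eggs and 0.25 in mated females. Males and the library labelled female were high for seq6 and mated females were low. The male level was 30.2 times that of mated females (interval 14.2 to 74.8), and that of the library labelled female was 20.7 times (9.63 to 51.9).

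The isoform seq5, the longest, led in the library labelled female. It had 194.83 counts there (interval 169 to 224), 125.77 in males (105 to 150), 11.66 in pupae, 1.48 in mated females and 0 in larvae and eggs. The FPKM values were 6.49, 3.63, 0.43 and 0.04 in the 4 libraries with counts. The virgin adult libraries were again high and mated females low, at 1.48 counts, which gives a ratio of males to mated females of 84.2 (22.0 to 4968) and of the library labelled female to mated females of 151 (39.6 to 8857).

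The isoform seq3 was present in every library from pupae on. Pupae had 13.13 counts of it (interval 6.92 to 22.2), males 52.01 (38.8 to 68.2), the library labelled female 42.3 (30.3 to 56.8) and mated females 201.7 (175 to 232), with 0 for eggs and larvae. Its FPKM was 0.55, 1.7, 1.6 and 6.65 in these 4 libraries. Unlike the others, seq3 was clearly counted in all 3 adult libraries. It was 3.92 times higher in mated females than in males (interval 2.88 to 5.43) and 4.17 times higher than in the library labelled female (3.003 to 6.01), while the ratio of males to the library labelled female was 1.07 (0.700 to 1.65). Its share of the summed FPKM was 36.7% in mated females, 13.2% in males and 11.9% for the library labelled female.

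**Figure D2:**
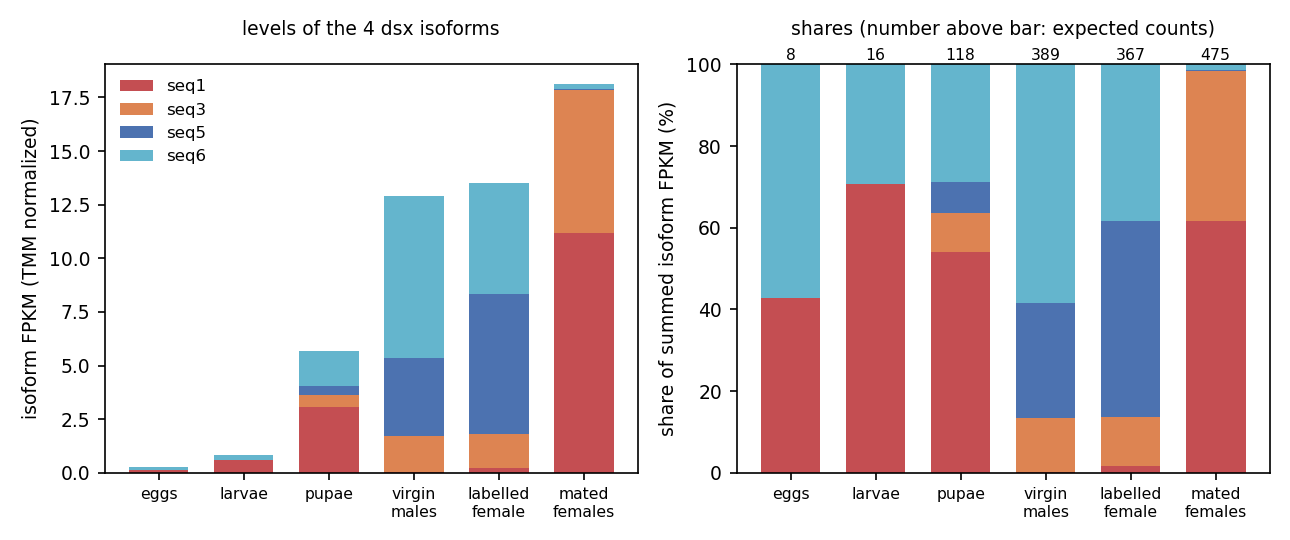
Isoform FPKM (left) and share of the summed isoform FPKM in percent (right) of the 4 dsx isoforms in the 6 libraries, stacked by isoform, with the expected counts of the unigene above each bar on the right. The seq5 and seq6 segments fill 86.6% of the male bar and 86.4% of the bar of the library labelled female but 1.60% of the mated female bar, where seq1 and seq3 fill 98.4%.

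The distance between the isoform shares of 2 libraries, taken as 0.5 times the summed absolute differences and given in percentage points, put these contrasts on a single scale. For dsx it was 85.0 points between males and mated females, 84.8 points between the library labelled female and mated females, and 21.4 points between males and the library labelled female. Among unigenes with at least 2 isoforms and 20 counts in both libraries, a distance of 50 points or more was found for 14.8% between males and mated females (555 of 3755), 16.1% between the library labelled female and mated females (601 of 3741) and 3.9% between males and the library labelled female (159 of 4076). The median distance of these unigenes was 21.3, 22.4 and 10.3 points in the same order. The dsx distance was therefore past 50 points in both contrasts with mated females and not between males and the library labelled female. A larger distance than that of dsx was found for 91 unigenes between males and mated females, 84 between the library labelled female and mated females and 926 between males and the library labelled female. Shares of counts in place of FPKM gave distances of 84.7, 85.4 and 21.8 points.

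**Figure D3:**
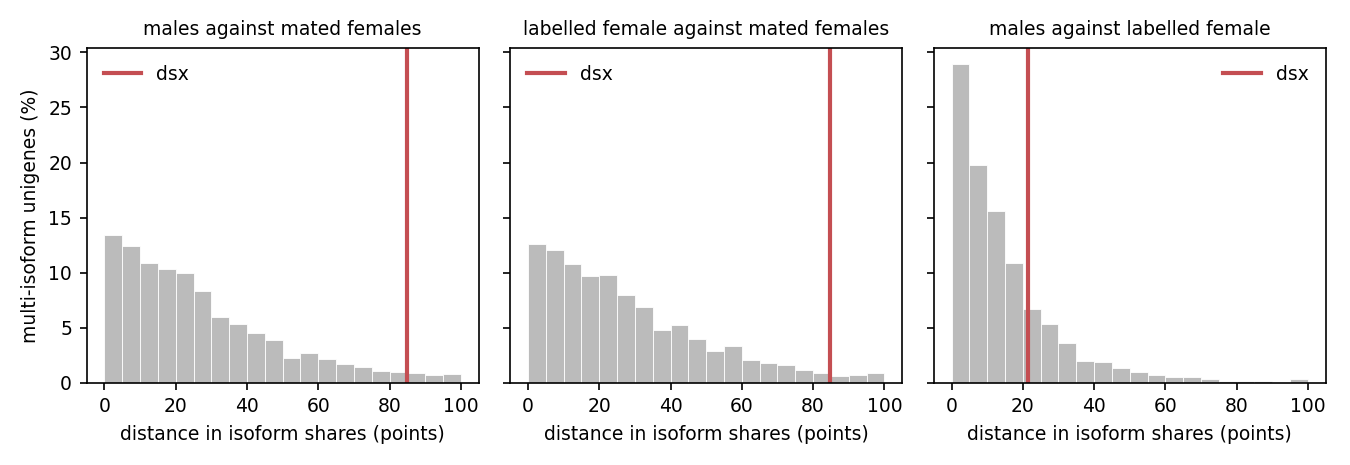
Distribution of the distance in isoform shares (percentage points, bins of 5 points) over unigenes with at least 2 isoforms and 20 counts in both libraries, for the 3 pairs of adult libraries; the vertical axis is the percent of these unigenes and the red line marks dsx. The line stands at 85.0 and 84.8 points in the contrasts with mated females, and at 21.4 points between males and the library labelled female.

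Within the pair of isoforms that prevailed in the virgin adults, males and the library labelled female differed in balance. Of the counts of seq5 and seq6 together, males had 62.6% as seq6 (interval 57.2% to 67.5%), and the library labelled female had 39.1% (33.9% to 44.5%). These intervals do not overlap. By isoform distance, though, 926 of 4076 unigenes lay further apart between these libraries than dsx at 21.4 points. The male to labelled female ratio was 1.46 for seq6 (1.16 to 1.83) and 0.559 for seq5 (0.444 to 0.704), so these isoforms differed in opposite directions, although the part of read assignment between isoforms in this was not tested. The summed share of both was nearly equal in these libraries.

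Pupae held all 4 isoforms. Of the summed isoform FPKM in pupae, seq1 made up 54.0%, seq6 28.7%, seq3 9.70% and seq5 7.58%, from 118 counts in all. The pupal shares of seq1, seq5 and seq6 lay between those of males and mated females. The pupal share of seq3 was below that of mated females, and as a share of counts, 11.1% (interval 6.55% to 17.9%), it overlapped that of males at 13.4% (10.3% to 17.1%). By distance, pupae were 34.7 points from mated females, 53.7 from males and 52.3 from the library labelled female. With shares of counts these distances were 38.5, 48.5 and 47.4 points, the latter 2 under 50 points. The methods of the study give sexing only at adult emergence, so the shares of males and females in this library are unknown. Eggs and larvae, at 8 and 16 counts, were under the 20 counts set for comparing shares. In both, counts were assigned to seq1 and seq6, with 0 for seq3 and seq5, and the Wilson interval of the seq1 share of counts ran from 13.7% to 69.4% in eggs and from 44.4% to 85.8% in larvae.

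The level of tra-2 followed another course, highest in eggs and in mated females. For comp23083_c0, eggs had 920 expected counts (interval 861 to 981), larvae 178 (153 to 206), pupae 209 (182 to 239), males 234 (205 to 266), the library labelled female 149 (126 to 175) and mated females 630 (582 to 681). In the same order these were 96.0, 27.4, 28.8, 25.4, 18.4 and 63.4 scaled CPM. Eggs and mated females stood apart from the other 4 libraries, which lay between 18.4 and 28.8 CPM. The step from eggs to larvae was a 3.50-fold difference (2.98 to 4.13), past the 2-fold bound met by 56.1% of unigenes. Larvae and pupae differed by less than counting error, with a ratio of 0.952 (0.775 to 1.17), and so did pupae and males, with a ratio of 1.13 (0.936 to 1.37).

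Among adults, tra-2 was 2.49-fold higher in mated females than in males (interval 2.14 to 2.91) and 3.44-fold higher than in the library labelled female (2.88 to 4.14). Both differences exceed 2-fold, as did those of 55.1% and 56.3% of unigenes. Males were 1.38 times the library labelled female (1.12 to 1.71), a difference above counting error but under 2-fold. Eggs exceeded mated females by 1.51-fold (1.37 to 1.68). The highest library was 5.21 times the lowest, and without the library labelled female, the lowest, this ratio was 3.77.

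Deposited FPKM of tra-2 was 50.80 in eggs and 33.55 in mated females, the moderately high class that starts at 26. It was 14.52 in larvae, 15.25 in pupae and 13.46 in males, the moderate class, and 9.74 in the library labelled female, just under it. The unigene ranked above 85.8% of unigenes by FPKM in eggs and 78.0% in mated females, against 55.9% to 64.8% in the other libraries. With a single isoform of 1890 bp in the tables, tra-2 offered no comparison of isoform shares. The sex determination list names more transcripts for tra-2 than this isoform, so it may not be all of tra-2. Per length, tra-2 exceeded dsx in eggs, larvae, pupae and mated females, and dsx exceeded tra-2 in the library labelled female. In males the order depended on the table, with unigene FPKM of 14.74 for dsx and 13.46 for tra-2 but summed isoform FPKM of 12.9 and 13.58.

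Across the 6 libraries, the log2(CPM + 1) values of dsx and tra-2 had a Pearson coefficient of -0.476, given as a description since each point is a single library. The unigenes most like dsx by this coefficient were comp27298_c0 (0.9963), comp28669_c0 (0.9915) and comp28106_c0 (0.9912), for which no D. melanogaster match was found in the rows of the ortholog tables used here. As with dsx, all 3 were low in eggs and larvae and high in the adult libraries, which follows from picking them by this coefficient. For example, comp28669_c0 had 11 counts in eggs, 2684 in pupae and 27994 in mated females. A coefficient of at least 0.95 with dsx was found for 83 of 8862 unigenes with 100 or more counts. For tra-2 the number was 551, or 6.22%. The nearest unigenes were comp28889_c0 (0.9988), comp29394_c0 (0.9976) and comp20702_c0 (0.9962), the last paired with FBgn0027574. The unigene comp28889_c0 had 1267 counts in eggs, 999 in mated females and between 341 and 462 in the other libraries. Its order of high and low libraries was that of tra-2, for which it was likewise picked.

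Other genes of the cascade, and genes tied to it, were described from 12 unigenes, called the cascade list. From the cascade it held scute, sisA, both runt unigenes, Sxl, daughterless (da) and intersex. It also held the dosage compensation genes msl-1, msl-2 and msl-3, and Yp1 and bab2, on which dsx acts in D. melanogaster. Of 10 with at least 100 counts, 4 had eggs and mated females as the 2 highest libraries, as tra-2 did, against 25.2% of all unigenes. These 4 were sisA, an X chromosome signal element of D. melanogaster, at 520 counts in eggs, 287 in mated females and 0 for both males and the library labelled female, the runt unigene comp29343_c0, another such element, at 464 and 320 counts in eggs and mated females against 3 or 4 elsewhere, the Sxl unigene comp20961_c0, and msl-1 of the dosage compensation complex. The other runt unigene, comp9454_c0, had the opposite order among adults, with 1 count in mated females, 9 in males and 11 for the library labelled female, and was highest in pupae at 12 counts. In D. melanogaster the Sex-lethal protein directs the female splicing of transformer, a role it is not known to have in C. capitata. The Sxl unigene stood at FPKM 44.85 in eggs and 35.32 in mated females, against 8.26 for males and 7.97 for the library labelled female. Its ratio of mated females to males was 4.28, and sisA was at least 88.5-fold higher in mated females than in males, whose count of 0 was set to 3.

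Of the 11 list unigenes with at least 10 counts in males and mated females together, 5 were 2-fold or more higher in mated females, 3 were higher in males and 3 differed by less, where 55.1% of all unigenes differed by 2-fold. Yp1, also an ovary marker here, was among those higher in mated females, and bab2 among those higher in males. The median difference, males minus mated females, was -0.55 on the log2 scale, beside 0.18 over all unigenes with that many counts. The counts were the same, 5, 3 and 3, for the library labelled female against mated females, with a median of -0.19 beside 0.16, where 56.3% of all unigenes differed by 2-fold. Between males and the library labelled female, 0 of 9 differed by 2-fold, with a median of -0.12 beside 0.03, and 4.41% of all unigenes did, so that a count of 0 among 9 is near the background.

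The cofactor and targets of Doublesex differed in course. The intersex (ix) unigene comp25974_c0 had 316 counts for eggs, 453 for larvae, 807 for pupae, 1011 for males, 973 for the library labelled female and 1105 for mated females. Its adult levels of 109.9, 120.3 and 111.2 CPM were close to one another, as were the scaled unigene counts of dsx. The unigene comp28593_c1, paired with the yolk protein gene Yp1, had 335735 counts in mated females, 4694 in males and 3589 in the library labelled female, and its level was 66.2-fold higher in mated females than in males and 76.2-fold higher than in the library labelled female. The adult libraries in which seq5 and seq6 of dsx prevailed also had less Yp1 than mated females, and a link between these was not tested. Yp1 was not scarce in them, at FPKM 277.89 in males and 241.54 in the library labelled female. Of all unigenes compared, 55.1% differed by 2-fold or more between males and mated females, and 56.3% between the library labelled female and mated females. The unigene paired with bab2, which Doublesex regulates in the abdomen of D. melanogaster, had 19 counts in mated females, 86 in males and 57 for the library labelled female, a male level 4.89 times that of mated females.

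**Figure D4:**
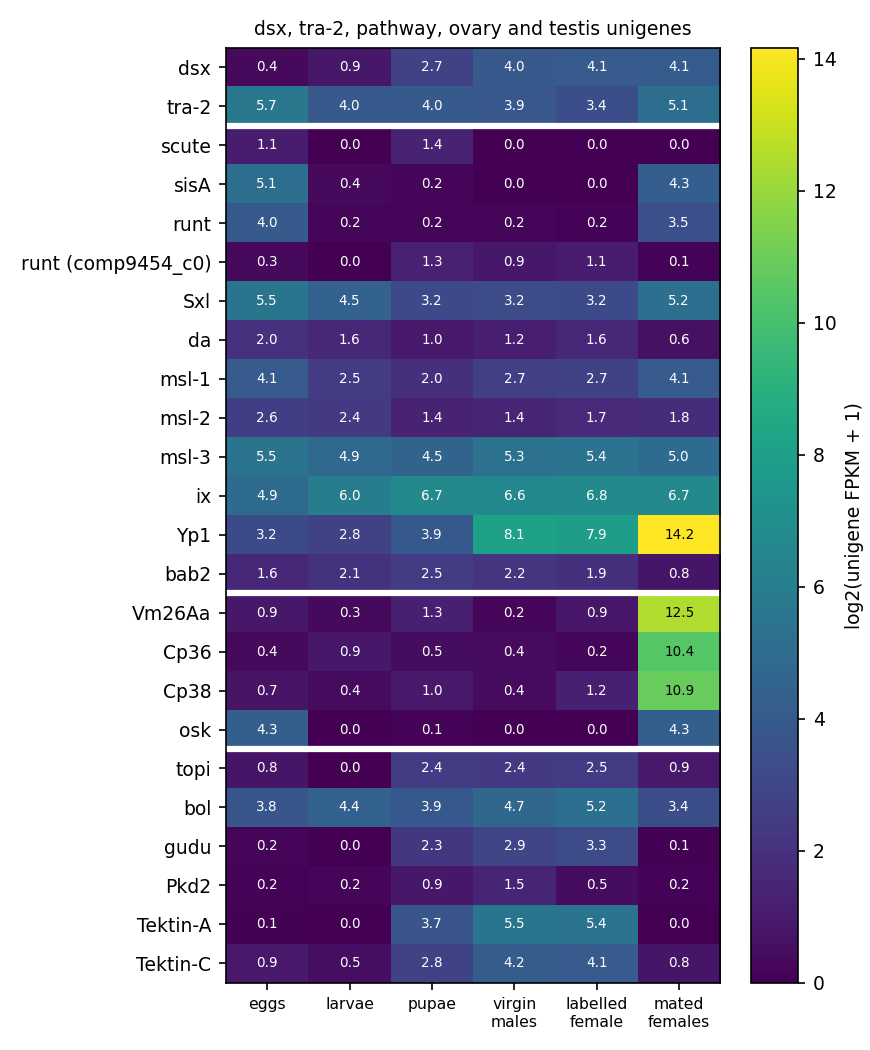
Deposited unigene FPKM as log2(FPKM + 1), printed in each cell and coloured by the scale at the right, for dsx and tra-2 (top), the 12 unigenes of the cascade list, and the ovary and testis unigenes that check the sex labels, in the 6 libraries (columns). The 6 testis unigenes at the bottom sum to 250 CPM in males and 291 CPM in the library labelled female against 46.6 CPM in mated females. The largest part of each sum is bol. Yp1, in the list of the cascade, also counts among the 5 ovary unigenes.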

How the data were processed

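Whole insects were sequenced as 6 libraries, 1 per stage, so no p-value was computed. Reads were filtered and assembled with Trinity by the authors, aligned to transcripts holding a coding sequence with bowtie 0.12.7 and estimated with RSEM (1.2.0 in the labels), without a genome. For unigenes and for isoforms, the authors deposited raw expected counts. They also deposited FPKM values normalized with TMM factors. Reads shared by isoforms were divided among them, which limits isoform values.

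The ratio of counts to FPKM gave the effective size of each library and the length of each feature, using the 668 unigenes or 535 isoforms at FPKM 50 or more in all libraries. TMM factors for unigenes lay between 0.868 in larvae and 1.30 in eggs. Counts were rounded for exact Poisson, Clopper-Pearson (ratios) and Wilson (shares) intervals. Fold and distance bounds were 2-fold and 50 points. Computation used Python 3.11.15, numpy 2.4.6, pandas 2.3.3, scipy 1.17.1, and DESeq2 1.42.0 in R 4.3.3 for size factors, and was tested on simulated data. Alternatives were other scalings, summed isoform FPKM, shares of counts, other count minimums and a pseudocount of 0.1.

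The unigenes named are the members with their isoforms, the cascade list of 12 unigenes, ovary and testis marker lists, and the 3 unigenes most correlated with each member. The cascade list includes dosage compensation genes and Doublesex targets. Members and lists were chosen with earlier results of these data known. None of the unigene identifiers matched the RefSeq gene table, so names come from the tables of the study, and symbols of D. melanogaster genes from their FlyBase numbers there.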

Additional observations from a re-analysis of the deposited data

How the results depend on the processing

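Of 66 alternative values for 24 results, 57 stayed within the limit set for the result, 9 moved past it and 0 reversed. A reversal could be scored only for the tra-2 ratios between adult libraries, whose intervals exclude 1. Some alternatives were bound to stay within the limit. No dsx isoform was under 10 counts in total, and the main scaling was itself recovered from the deposited FPKM. The library labelled female is not among the extremes of dsx. The limit was the 95% counting interval for a level ratio, the counting intervals of the isoform shares for a dsx distance, and 1.5 times for a share or a count of unigenes. Without a scaling factor, the male to mated female ratio was 0.743 for dsx and 0.337 for tra-2, the ratio of the library labelled female to mated females for dsx was 0.804, and the highest to lowest ratio of tra-2 was 7.22. That setting shifts all unigenes by -0.25 on the log2 scale between males and mated females and by 0.58 between eggs and larvae. With summed isoform FPKM the dsx ratios to mated females were 0.7115 for males and 0.745 for the library labelled female. With size factors of DESeq2, dsx was higher in the library labelled female than in mated females, at a ratio of 1.01, which lies within counting error. Without the library labelled female, chosen after the values were seen, the highest to lowest ratio of tra-2 was 3.77. Between males and that library, 2.44% of unigenes passed 50 points at a minimum of 100 counts, and 8.33% passed 2-fold with no filter. With a pseudocount of 0.1, 1 of the 3 unigenes nearest to dsx and 2 of the 3 nearest to tra-2 remained. The alternatives for tra-2 isoform shares were not run, since the unigene has 1 isoform. With 1 library per stage, collection and library effects cannot be told apart from stage, and dsx in eggs and larvae is limited by 8 and 16 counts.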

Other observations

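The 6 testis and sperm unigenes used to check the sex labels were also followed through eggs, larvae and pupae. Tektin-A had 1 count in eggs, 0 in larvae and 167 in pupae, the unigene paired with gudu had 4, 0 and 69 counts, and the unigene paired with topi, a regulator of spermatocyte transcription, had 11, 0 and 49. Each of the 4 dsx isoforms was higher in pupae than in larvae, a step at which 47.4% of all unigenes compared differed by 2-fold or more. A link between these courses was not tested. Counts went from 10.84 to 57.42 for seq1, 0 to 13.13 for seq3, 0 to 11.66 for seq5 and 5.16 to 35.79 for seq6. The RNA-binding gene bol, the most abundant of the 6, went the other way, from 595 counts in larvae to 450 in pupae (91.7 and 62.1 CPM), and had 560 counts in eggs. Males and the library labelled female differed by 2-fold or more in the sperm channel gene Pkd2, at 15 and 3 counts. The eggshell gene Cp38 differed by 2-fold or more in the opposite direction, at 4 and 15 counts, against 25793 in mated females. Both differences rest on few counts, and 4.41% of all unigenes compared passed 2-fold between males and the library labelled female. The oocyte gene osk had 487 counts in eggs and 500 in mated females, the libraries in which tra-2 was highest, and 0 or 2 in the other 4.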
